A study of Rattus norvegicus with 12 samples.

Results

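The immediate early transcription factors and the phosphatase Dusp1 were described in rat cardiac progenitor cells that were either kept in suspension or seeded on dishes. The 10 genes were chosen by name, as rows whose Entrez identifier belongs to Egr1, Egr2, Fos, Fosl1, Jun, Junb, Ier2, Ier3, Atf3 or Dusp1 in rat, and all 10 were found among the 16924 genes of the count files. The cells were a line from a single clone of rat cardiac progenitor cells, cultured in F12 medium with serum, leukemia inhibitory factor, basic fibroblast growth factor, erythropoietin and glutathione. The 4 groups of 3 RNA-seq libraries were cells in suspension, on fibronectin, on laminin and on dishes without coating, and the labels give low seeding density and 2 h in medium with 0.1% serum. The labels carry this protocol for suspension too and do not say how those cells were handled, so attachment cannot be told apart from other differences in handling. The series title sets the question of how the matrix shapes the fate of these cells early on, through YAP and Plk2.

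Immediate early genes are switched on within minutes of a stimulus, before new protein is made. Growth factors, serum, integrin engagement and mechanical or chemical stress reach them through MAP kinases, and serum response factor with its ternary complex partners and CREB act at their promoters. The EGR, FOS, JUN and ATF proteins are themselves transcription factors that set later gene programs, while Dusp1 encodes a nuclear phosphatase that removes the activating phosphates from MAP kinases and so closes the loop. The transcripts are short-lived, and cell detachment and other handling steps are known to induce many of them.

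Library totals ranged from 15875160 to 20852160 counts, and levels are given as CPM, the count scaled to 1000000 counts of that total. Each library belongs to batch 1, 2 or 3, a label equal to its replicate number. Of the defining markers, the mesenchymal genes Vim and Col1a1 averaged 5125 and 1164 CPM over the 12 libraries, the cardiac factor Gata4 88.4 CPM and the progenitor receptor Kit 3.09 CPM. The cardiac factors Nkx2-5 and Isl1 had no count in any library and Tbx5 had 1 count in all, so these progenitor markers were at or near 0 in these counts. The listed progenitor marker Mef2c was not analysed here. The 6 cardiomyocyte markers summed to 2.00 to 2.78 CPM in suspension and 4.49 to 6.75 CPM in attached libraries, with Myh7 at 0, 5 of 6 averaging below 1 CPM, and the troponin Tnnt2 rising by 1.52 ± 0.16 for the attached mean (edgeR adjusted p = 0.00011). The 4 measured endothelial markers summed to 1.16 to 1.39 CPM in suspension and 1.67 to 2.40 CPM in attached libraries, with none at 0. The 5 blood cell markers, with Hbb at 0, summed to 0.896 to 1.77 CPM in suspension and 0.977 to 2.29 CPM in attached libraries. The 5 mesenchymal markers, of which Thy1 averaged 0.0842 CPM, summed to 6267 to 7003 CPM in suspension and 6934 to 7576 CPM in attached libraries. The 3 measured smooth muscle markers summed to 164 to 224 CPM in suspension and 180 to 227 CPM in attached libraries. Of these, Tagln averaged 196 CPM over the 12 libraries. For the attached mean Myh11 changed by -0.455 ± 0.138 (edgeR adjusted p = 0.0336) and the endothelial Vwf by 1.502 ± 0.279 (0.00397). Vim changed by 0.226 ± 0.0497 (0.00879) and Pdgfra by 0.496 ± 0.159 (0.0411). Kit, Gata4, Tnni3, Tagln, Col1a1, Col1a2, Cd68 and Csf1r did not pass this test. The part of these markers in the results was not tested. On the first principal component, which held 56.1% of the variance of log2 CPM, the suspension libraries lay between -30.8 and -27.8, the 6 attached libraries of batches 1 and 2 between -7.04 and 1.46, and the 3 attached libraries of batch 3 between 20.8 and 41.9. In bulk RNA, fewer cells that express a gene and less RNA per cell cannot be told apart.

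The promoters of 4 of the genes are shown because they carry the sites through which serum response factor and CREB are known to act, and because the genes differed in how they moved. They are the 250 bases before the annotated start in the RefSeq table of assembly GRCr8, written in the direction of the gene, with motif matches in capitals. Egr1 lies at chr18:26736828-26737077 on the plus strand, Egr2 at chr20:21054442-21054691 on the minus strand, Dusp1 at chr10:17184603-17184852 on the plus strand and Ier2 at chr19:40399123-40399372 on the plus strand, and the counts themselves were made on another assembly.
Egr1: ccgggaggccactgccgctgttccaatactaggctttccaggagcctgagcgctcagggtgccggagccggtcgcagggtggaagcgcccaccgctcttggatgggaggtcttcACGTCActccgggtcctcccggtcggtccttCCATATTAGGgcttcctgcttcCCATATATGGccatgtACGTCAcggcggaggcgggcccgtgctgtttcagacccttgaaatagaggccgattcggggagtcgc
Egr2: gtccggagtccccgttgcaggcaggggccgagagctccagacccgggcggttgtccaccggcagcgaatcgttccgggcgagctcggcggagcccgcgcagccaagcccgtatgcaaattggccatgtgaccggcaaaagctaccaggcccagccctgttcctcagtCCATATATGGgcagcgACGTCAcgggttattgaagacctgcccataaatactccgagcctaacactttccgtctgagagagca
Dusp1: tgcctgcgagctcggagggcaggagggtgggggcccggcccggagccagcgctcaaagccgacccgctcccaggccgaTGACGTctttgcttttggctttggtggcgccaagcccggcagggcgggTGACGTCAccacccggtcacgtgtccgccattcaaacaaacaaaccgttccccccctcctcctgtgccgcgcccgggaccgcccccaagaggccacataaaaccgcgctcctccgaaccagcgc
Ier2: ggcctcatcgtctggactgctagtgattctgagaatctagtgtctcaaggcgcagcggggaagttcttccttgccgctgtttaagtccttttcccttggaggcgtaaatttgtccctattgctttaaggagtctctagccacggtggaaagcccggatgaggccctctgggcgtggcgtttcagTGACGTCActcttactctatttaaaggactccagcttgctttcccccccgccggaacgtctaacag

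The motifs searched on both strands were the CArG box, the binding site of serum response factor, the cAMP response element TGACGTCA (CRE), its shorter form TGACGT, the AP-1 site TGANTCA, the EGR site GCGNGGGCG and the ETS site CCGGAAG. The shorter CRE is contained in the full one, so each full CRE also counts as a short one. Egr1 held 2 CArG boxes, at -105 to -96 and -83 to -74 from the start, and 2 short CREs, at -136 to -131 and -67 to -62. Egr2 held a CArG box at -83 to -74 and a short CRE at -67 to -62, the positions of the second pair of Egr1. Dusp1 held a CRE at -124 to -117 and a further short CRE at -172 to -167, and Ier2 held a CRE at -66 to -59. None of the 6 motifs was found in these 250 bases of Junb or Fosl1, which says only that these letters are not in that window. Among 33469 rat promoters of this length, 1.5% held a CArG box, 1.59% a CRE, 6.95% a short CRE, 6.34% an AP-1 site, 4.29% an EGR site and 7.27% an ETS site. A match describes the sequence and does not show binding. The promoters of Fos, Jun, Ier3 and Atf3 were not used here.

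**Figure D1:**
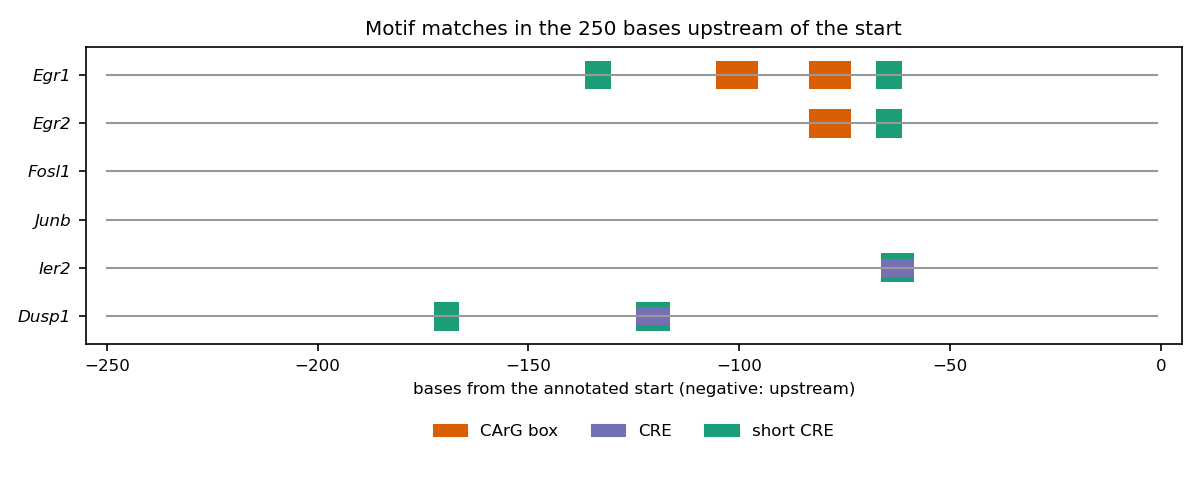
Position of motif matches in the 250 bases before the annotated start of 6 genes, with the distance from the start in bases on the x axis and 1 line per gene. Egr1 carries 2 CArG boxes and Egr2 carries 1, Dusp1 and Ier2 carry a full CRE, and the lines of Junb and Fosl1 are empty.

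Across the 10 genes, attachment went with lower Egr1, Junb and Dusp1 on all 3 surfaces and with higher Atf3 on fibronectin and uncoated dishes. The other 6 genes did not pass the main test, which had no batch term, on any surface. The test was edgeR's quasi-likelihood test over 10020 genes with Benjamini-Hochberg adjustment and a threshold of 0.05, and a change is a log2 fold change ± SE with 3 libraries per group. On fibronectin 3 members fell and 1 rose, beside 9.67% of all genes called, 3.06% lower and 6.61% higher. On laminin 3 fell and none rose, beside 19% of all genes called, 6.96% lower and 12.1% higher. On uncoated dishes 3 fell and 1 rose, beside 12.6% of all genes called, 4.1% lower and 8.48% higher. For the mean of the 3 attached groups 3 fell and 1 rose, beside 26.3% of all genes called, 10.4% lower and 15.9% higher. With the batch as a block the members called numbered 6 on laminin, 5 on uncoated dishes and 6 for the attached mean, beside 43.2%, 38.8% and 50.1% of all genes. Those added by the block were Fosl1, Jun and Ier3 on laminin, Ier3 on uncoated dishes, and Egr2 and Ier3 for the attached mean. The median change of the 10 genes was -0.31 on fibronectin, -0.47 on laminin and -0.11 on uncoated dishes, beside 0.00, -0.01 and 0.00 for all genes. The 3 surfaces were compared with the same suspension libraries, so their changes are not independent of each other.

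**Figure D2:**
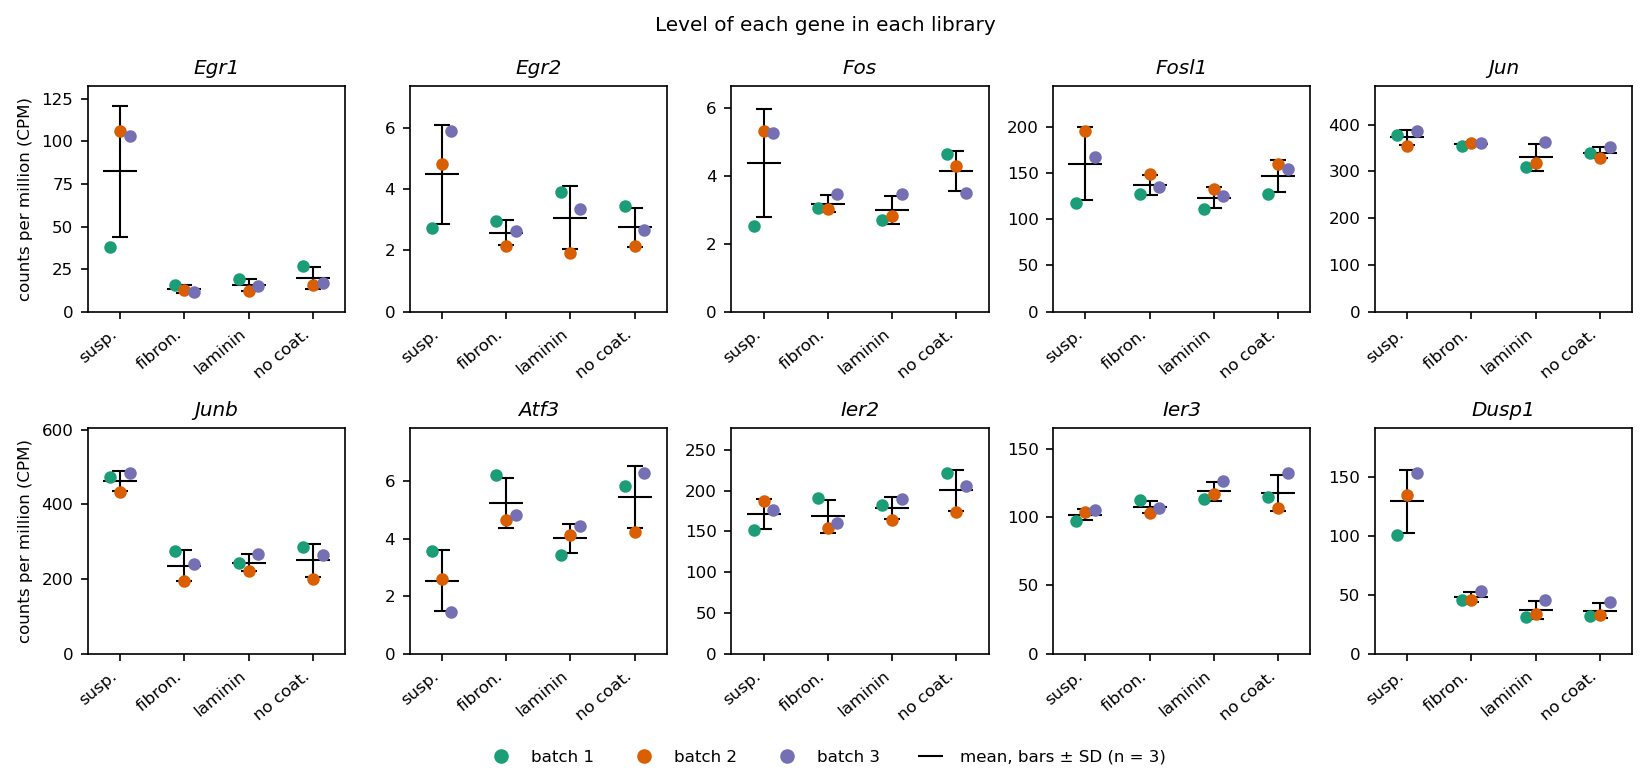
Level of each of the 10 genes in every library, in CPM on the y axis, by group on the x axis, with points coloured by batch and bars for the mean ± SD of 3 libraries. The attached libraries of Egr1, Junb and Dusp1 lie below every suspension library, and the suspension library of batch 1 lies low for Egr1, Egr2, Fos and Fosl1.

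Egr1 (Entrez 24330), a zinc finger factor that answers growth factors and stress, had the largest change of the 10. In suspension it stood at 38.1, 106 and 103 CPM in batches 1, 2 and 3. On fibronectin it stood at 15.9, 12.5 and 11.5 CPM, on laminin at 19.1, 12.4 and 15.3 CPM, and on uncoated dishes at 27.1, 15.5 and 16.6 CPM. All 9 attached libraries were below all 3 suspension libraries, an arrangement that 16.7% of all genes showed, and all 9 were lower than the suspension library of their batch, as were 23.9% of all genes. Egr1 fell by 2.60 ± 0.38 on fibronectin, a level 6.06-fold lower (adjusted p = 0.00196). It fell by 2.41 ± 0.38 on laminin, 5.32-fold lower (adjusted p = 0.00225), and by 2.05 ± 0.38 on uncoated dishes, 4.13-fold lower (adjusted p = 0.00645). The attached mean fell by 2.35 ± 0.27 (adjusted p = 0.000204).

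The size of the Egr1 change differed between batches. Within batch 1 the log2 ratio to suspension was -1.26 on fibronectin, -0.998 on laminin and -0.49 on uncoated dishes. Within batches 2 and 3 it ran from -3.16 to -2.64 over the 3 surfaces. The suspension library of batch 1 held 38.1 CPM, and the other suspension libraries held 2.78 and 2.71 times that level. Without this library the Egr1 change was -2.95 on fibronectin, -2.76 on laminin and -2.40 on uncoated dishes.

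Egr2 (Entrez 114090), the related factor known from hindbrain and Schwann cells, was low in these cells. It stood at 2.72, 4.82 and 5.88 CPM in suspension, 2.94, 2.14 and 2.63 CPM on fibronectin, 3.91, 1.92 and 3.35 CPM on laminin, and 3.43, 2.14 and 2.66 CPM on uncoated dishes. The groups overlapped, because the suspension library of batch 1 lay among the attached ones, and Egr2 was lower than suspension in 6 of 9 same-batch pairs and higher in the 3 of batch 1. The change of the attached mean was -0.67 ± 0.25 (edgeR adjusted p = 0.0719), with a 95% interval from -1.23 to -0.11. With the batch as a block the adjusted p was 0.0421, and without the suspension library of batch 1 the change was -0.94 (adjusted p = 0.0263).

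The FOS family gave no call in the main test. Fos (Entrez 314322), the partner that gives AP-1 its strong dimers with JUN proteins, stood at 2.54, 5.32 and 5.27 CPM in suspension, 3.06, 3.03 and 3.47 CPM on fibronectin, 2.70, 2.83 and 3.47 CPM on laminin, and 4.66, 4.28 and 3.50 CPM on uncoated dishes. The suspension library of batch 1 was the lowest of all 12 and the other suspension libraries were the highest. The change was -0.43 ± 0.25 on fibronectin (edgeR adjusted p = 0.301), -0.55 ± 0.26 on laminin (0.146) and -0.06 ± 0.25 on uncoated dishes (0.875). Without the suspension library of batch 1 the adjusted p of Fos was 0.0287 on fibronectin and 0.0108 on laminin, with changes of -0.71 and -0.83.

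Fosl1 (Entrez 25445), which encodes the longer-lived FOS relative FRA-1, stood at 117, 195 and 168 CPM in suspension, 127, 149 and 135 CPM on fibronectin, 111, 133 and 125 CPM on laminin, and 127, 159 and 154 CPM on uncoated dishes. The groups overlapped. The mean was lowest on laminin, where the change was -0.38 ± 0.17 (edgeR adjusted p = 0.13). With the batch as a block this adjusted p was 0.0217, and without the suspension library of batch 1 it was 0.0165 with a change of -0.57.

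The JUN members parted. Junb (Entrez 24517), a JUN protein that tempers the activity of JUN, stood at 473, 433 and 484 CPM in suspension, 275, 194 and 239 CPM on fibronectin, 243, 222 and 267 CPM on laminin, and 285, 199 and 264 CPM on uncoated dishes. Every attached library was below every suspension library, and the spread within suspension was small beside the gap. Junb fell by 0.93 ± 0.15 on fibronectin, 1.91-fold (edgeR adjusted p = 0.00306), by 0.92 ± 0.15 on laminin, 1.90-fold (0.00257), and by 0.87 ± 0.15 on uncoated dishes, 1.83-fold (0.00436). Within batches its log2 ratio ran from -1.16 to -0.73 over the 9 pairs, and unlike Egr1 the suspension library of batch 1 was not low.

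Jun (Entrez 24516), the founding AP-1 subunit, stood at 377, 355 and 386 CPM in suspension, 353, 361 and 361 CPM on fibronectin, 308, 319 and 363 CPM on laminin, and 338, 329 and 353 CPM on uncoated dishes. The uncoated libraries were just below all suspension libraries while the other groups overlapped with suspension, and 8 of 9 same-batch pairs were lower. The share of all genes lower in at least 8 of 9 pairs is not given here. Under the stricter rule of 9 of 9 pairs it was 23.9%, so it is at least that large. The share with the uncoated arrangement is not given either, so both are a description only. The change was -0.02 ± 0.06 on fibronectin, -0.17 ± 0.06 on laminin (edgeR adjusted p = 0.0731) and -0.11 ± 0.06 on uncoated dishes. The 95% interval of the attached mean ran from -0.21 to 0.01. On laminin the adjusted p was 0.0228 with the batch as a block, 0.0265 with DESeq2 and 0.038 without the laminin library of batch 3.

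Atf3 (Entrez 25389), a stress-induced factor that pairs with JUN proteins and often represses, was the only one of the 10 called higher in the main test. It stood at 3.56, 2.61 and 1.46 CPM in suspension, 6.23, 4.65 and 4.84 CPM on fibronectin, 3.45, 4.12 and 4.45 CPM on laminin, and 5.84, 4.22 and 6.28 CPM on uncoated dishes. The fibronectin and uncoated libraries lay above all suspension libraries, and 1 laminin library lay below the highest suspension library. The share of all genes with this arrangement is not given here. Atf3 rose by 1.08 ± 0.27 on fibronectin (edgeR adjusted p = 0.0296) and by 1.12 ± 0.27 on uncoated dishes (0.0222), and on laminin the change was 0.66 ± 0.27 (0.108). These levels rest on between 26 and 110 counts per library.

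The Atf3 calls depended on single libraries. On fibronectin the adjusted p rose to 0.0878 without suspension 2, 0.0832 without suspension 3, 0.104 without fibronectin 1 and 0.069 without fibronectin 3. On uncoated dishes it rose to 0.0671 without suspension 2, 0.0626 without suspension 3, 0.051 without the uncoated library of batch 1 and 0.0697 without that of batch 3. The attached mean of 0.96 ± 0.23 (adjusted p = 0.0134) was at 0.0505 without suspension 2, 0.0559 without suspension 3 and 0.0631 without batch 3. On laminin the adjusted p was 0.0487 without suspension 1.

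Ier2 (Entrez 494344), a small nuclear protein of the early response, stood at 151, 187 and 177 CPM in suspension, 191, 154 and 160 CPM on fibronectin, 183, 164 and 189 CPM on laminin, and 221, 173 and 206 CPM on uncoated dishes. The groups overlapped, and 4 of 9 same-batch pairs were lower and 5 higher. Within batch 1 the log2 ratio was 0.34 on fibronectin, 0.27 on laminin and 0.55 on uncoated dishes. Within batches 2 and 3 it ran from -0.28 to 0.22. The attached mean differed by 0.10 ± 0.11 with a 95% interval from -0.13 to 0.33. Ier3 (Entrez 294235), which encodes an early protein linked to survival under stress, stood at 97.0, 104 and 105 CPM in suspension, 112, 103 and 107 CPM on fibronectin, 113, 117 and 127 CPM on laminin, and 115, 107 and 132 CPM on uncoated dishes. It was higher than suspension in 8 of 9 same-batch pairs, and all laminin and all uncoated libraries were above all suspension libraries. The share of all genes with these arrangements is not given here. The attached mean of Ier3 differed by 0.19 ± 0.07 (edgeR adjusted p = 0.0628), and with the batch as a block the adjusted p was 0.0294, 0.0363 on laminin and 0.0388 on uncoated dishes.

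Dusp1 (Entrez 114856), the phosphatase that switches MAP kinases off, fell with the smallest p of the 10. It stood at 100, 134 and 153 CPM in suspension, 45.3, 45.4 and 53.0 CPM on fibronectin, 31.1, 33.6 and 45.6 CPM on laminin, and 32.1, 33.1 and 43.5 CPM on uncoated dishes. Every attached library was below every suspension library. Dusp1 fell by 1.40 ± 0.18 on fibronectin, 2.64-fold (edgeR adjusted p = 0.000781), by 1.82 ± 0.18 on laminin, 3.52-fold (0.000105), and by 1.82 ± 0.18 on uncoated dishes, 3.53-fold (0.000119). Within batches the log2 ratio ran from -2.02 to -1.15, with batch 1 giving the smallest fall on each surface.

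**Figure D3:**
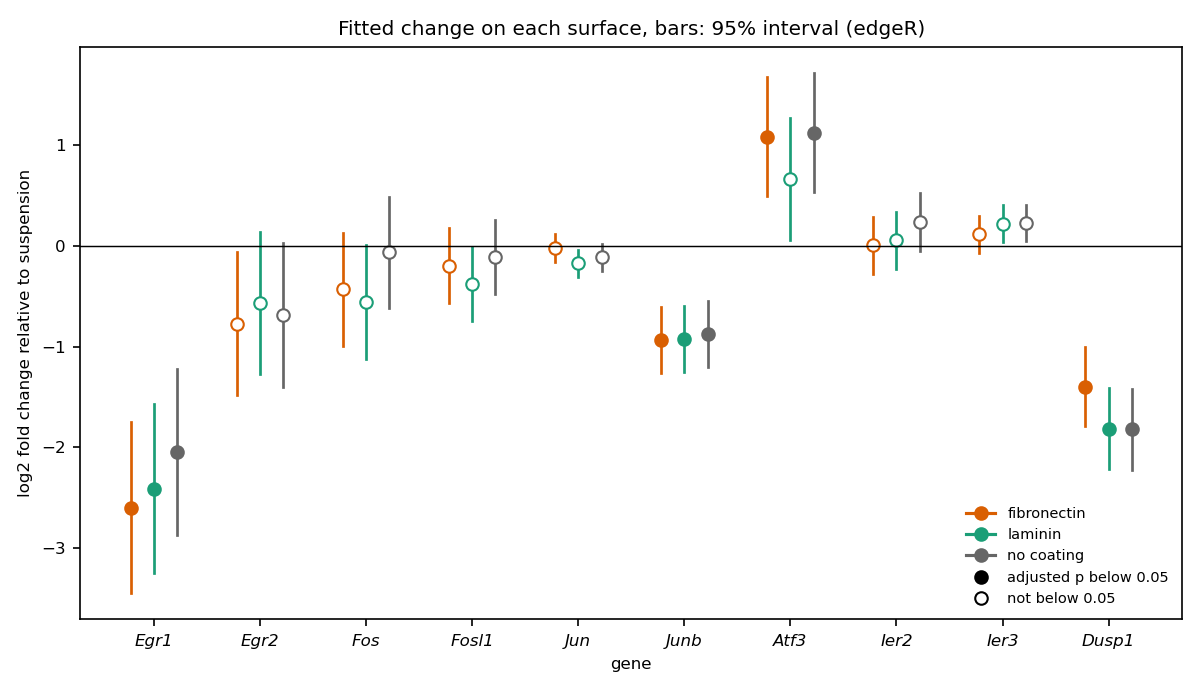
Fitted log2 fold change of each gene relative to suspension on the y axis, by gene on the x axis, with 1 point per surface, bars for the 95% interval and filled points for an edgeR adjusted p below 0.05. The intervals of Egr1, Junb and Dusp1 lie below 0 on all 3 surfaces, and the points of Ier2, Jun and Ier3 lie near 0.

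The suspension libraries differed among themselves for several of the genes. The suspension library of batch 1 was at least 1.3 times below both other suspension libraries for Egr1, Egr2, Fos, Fosl1 and Dusp1, which is 5 of the 10 genes, beside 2.13% of all genes. The ratios of suspension 2 and 3 to suspension 1 were 1.77 and 2.16 for Egr2, 2.10 and 2.08 for Fos, 1.66 and 1.43 for Fosl1 and 1.34 and 1.52 for Dusp1, while Atf3 went the other way with 0.731 and 0.409. These genes were picked out after their values were seen, so the count beside the share is a description and not a test. Dusp1 lay close to the limit of 1.3, and Ier2, with 1.24 and 1.17, fell short of it. Without this library the members called numbered 5 on fibronectin, 6 on laminin, 4 on uncoated dishes and 7 for the attached mean, beside 7.02%, 13.2%, 8.56% and 17.1% of all genes in that fit. Fos joined the lower ones on fibronectin, Fos and Fosl1 on laminin, and Egr2, Fos and Fosl1 in the attached mean, while Atf3 joined as higher on laminin. Without all of batch 1 they numbered 3 on each surface and 6 for the attached mean, beside 3.13%, 5.15%, 3.72% and 11.1% of all genes. Without batch 3, whose attached libraries stand apart, Egr1, Junb and Dusp1 again made up the 3 calls on each surface, beside 9.25%, 18.9% and 12% of all genes, and 23.3% of all genes were called for the attached mean.

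**Figure D4:**
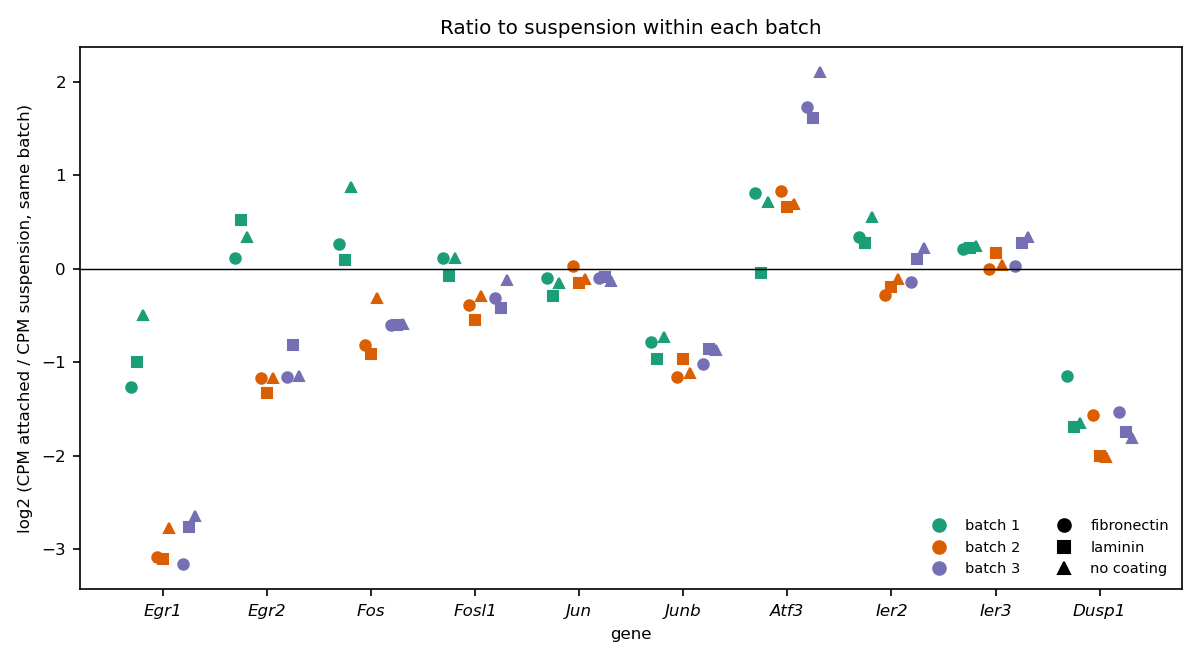
Log2 ratio of CPM between each attached library and the suspension library of its batch on the y axis, by gene on the x axis, with colour for the batch and shape for the surface. Egr1, Egr2, Fos, Fosl1 and Ier2 are split by batch, with batch 1 above batches 2 and 3. The 9 points of Junb and of Dusp1 stay below 0. The points of a batch share the same suspension library.

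Genes that respond to heat shock and cell handling were summed beside these results. The summed level of the 8 measured genes was 1631 to 1813 CPM in suspension, 1362 to 1699 CPM on fibronectin, 1328 to 1839 CPM on laminin and 1277 to 1650 CPM on uncoated dishes, so the ranges overlapped. For the attached mean 2 of the 8 fell and 2 rose, with a median of -0.10, beside 10.4% of all genes lower and 15.9% higher. Without batch 1 none of the 8 was called by edgeR, beside 11.1% of all genes, and DESeq2 on all libraries called 2 lower and 2 higher. Hspa1a, an inducible HSP70 chaperone, changed by -0.50 ± 0.13 and Hsph1, its exchange factor, by -0.38 ± 0.12, while Bag3, a co-chaperone, changed by 0.27 ± 0.08 and Dnajb1 by 0.23 ± 0.06. All 4 calls depended on single suspension libraries: Dnajb1 and Bag3 lost theirs whichever of the 3 was dropped, Hspa1a without suspension 1 or 3 and Hsph1 without suspension 2 or 3. The highest adjusted p over the alternatives was 0.0733, 0.101, 0.109 and 0.202 in that order. Hsph1 lost its call in 10 of 19 alternatives, among them the loss of single attached libraries. Dnajb1 and Bag3 lost theirs with scaling by library totals (edgeR adjusted p = 0.0527 and 0.0616). With that scaling the list held 2 lower and 0 higher calls. The part of cell handling in the immediate early changes was not tested.

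Between surfaces, none of the 10 genes was called. The count at an unadjusted p under 0.05 was 2 for laminin against fibronectin, 1 for fibronectin against uncoated dishes and 0 for laminin against uncoated dishes, and DESeq2 called 0 in each. Over all genes edgeR called 0.15%, 0.18% and 0%, and 2.99%, 3.43% and 1.56% had an unadjusted p under 0.05. Jun, the second of those under 0.05, differed by -0.15 ± 0.06 for laminin against fibronectin (unadjusted p = 0.0314, edgeR adjusted p = 1, block adjusted p = 0.495). For Dusp1 the log2 change was -0.42 ± 0.18 for laminin against fibronectin, with a 95% interval from -0.81 to -0.02, and 0.42 ± 0.18 for fibronectin against uncoated dishes, with an interval from 0.03 to 0.82, both at an edgeR adjusted p of 1. With the batch as a block the adjusted p of Dusp1 were 0.161 and 0.14. For Egr1 the interval of fibronectin against uncoated dishes ran from -1.38 to 0.28 and for Junb from -0.39 to 0.27.

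The order of the groups by mean level can be given for each gene called lower on all 3 surfaces. Egr1 averaged 82.4 ± 38.4 CPM in suspension, 19.7 ± 6.43 on uncoated dishes, 15.6 ± 3.36 on laminin and 13.32 ± 2.30 on fibronectin (SD, n = 3). Dusp1 averaged 129.1 ± 26.6 CPM in suspension, 47.9 ± 4.41 on fibronectin, 36.8 ± 7.76 on laminin and 36.3 ± 6.33 on uncoated dishes. Junb averaged 463 ± 26.5 CPM in suspension, 249.6 ± 44.8 on uncoated dishes, 243.9 ± 22.2 on laminin and 236 ± 40.6 on fibronectin. In each case suspension stood apart, and no difference between neighbouring surfaces passed the test.

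Relatives of these genes outside the 10 moved in both directions. Of 25 further immediate early and AP-1 genes, 22 were tested, and 4 fell and 7 rose for the attached mean, with a median of 0.03, beside 10.4% of all genes lower and 15.9% higher. Klf4, a zinc finger factor tied to stemness and quiescence, fell by 0.84 ± 0.08 (edgeR adjusted p = 7.74e-05), and the orphan nuclear receptor Nr4a3 fell by 0.60 ± 0.08 (0.000383). Klf2, known as a flow-responsive factor, rose by 1.05 ± 0.14 (5e-04), and Ier5 rose by 0.58 ± 0.08 (0.000956). Egr3, a close relative of Egr1 chosen here after its values were seen, rose by 0.77 ± 0.19 (0.0157) from a low 2.62 ± 0.49 CPM in suspension. Its adjusted p was 0.072 without suspension 1 and 0.0811 without batch 1. By surface Egr3 was called in the main test on uncoated dishes only, at 1.13 ± 0.22 (0.00946). That call was lost without batch 1 (0.0585). The change was 0.49 ± 0.23 on fibronectin (0.205) and 0.69 ± 0.23 on laminin (0.0568). On laminin the adjusted p was 0.0417 with DESeq2 and 0.0387 with the batch as a block. Without suspension 1 the list held 3 lower and 3 higher calls, and without batch 1 it held 3 and 2, beside 17.1% and 11.1% of all genes called in those fits.

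Klf2 was called between 2 of the surfaces as well. It averaged 5.08 ± 0.78 CPM in suspension, 16.8 ± 1.05 on fibronectin, 9.08 ± 2.03 on laminin and 7.36 ± 0.53 on uncoated dishes (SD, n = 3). It rose by 1.76 ± 0.16 on fibronectin (edgeR adjusted p = 7.56e-05) and by 0.83 ± 0.16 on laminin (0.00694), and the change on uncoated dishes was 0.55 ± 0.16 (0.0509, and 0.0201 with the batch as a block, 0.0386 with DESeq2 and 0.0444 without batch 3). Fibronectin stood 1.21 ± 0.15 above uncoated dishes (adjusted p = 0.00803), with adjusted p of 0.0645 and 0.0624 without the uncoated libraries of batch 1 and batch 2 and 0.584 without all of batch 1. Laminin stood lower than fibronectin, with a change of -0.93 ± 0.15 (adjusted p = 0.0509, and 0.0168 with the block). On laminin the call against suspension was lost without batch 1 (0.0927).

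Among 13 partners and competitors of AP-1, 11 were tested, and 2 fell and 2 rose for the attached mean, with a median of 0.00, beside 10.4% of all genes lower and 15.9% higher. Atf4, the factor of the integrated stress response, rose by 0.44 ± 0.06 (edgeR adjusted p = 0.000583). Creb1, which encodes the protein that binds the CRE, fell by 0.75 ± 0.18 (0.0133) and the stress factor Ddit3 fell by 0.34 ± 0.09 (0.0165). The Creb1 call was lost without suspension 2 (adjusted p = 0.0619) or suspension 3 (0.0812), and that of Ddit3 without suspension 1 (0.0869) or suspension 3 (0.0956). Without batch 1 the list held 0 lower and 2 higher calls, beside 11.1% of all genes called.

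Few of the genes that act upstream of these promoters passed the test. Of 20 kinases and factors listed, 17 were tested, and 0 fell and 2 rose for the attached mean, with a median of 0.00, beside 10.4% of all genes lower and 15.9% higher. The kinase Map2k2 rose by 0.28 ± 0.08 (edgeR adjusted p = 0.0296) and the NF-kB subunit Rela by 0.22 ± 0.07 (0.0444). Both calls were lost whichever suspension library was dropped (highest adjusted p over the alternatives 0.123 and 0.149). Of 19 alternatives, 6 lost the Map2k2 call, among them scaling by library totals. The Rela call was lost in 14, among them other scalings and no filter. Srf, the factor that binds the CArG box, differed by -0.22 ± 0.08 (0.0659, and 0.0204 with the batch as a block), and the stress kinase Mapk9 by -0.32 ± 0.13 (0.0796, and 0.00894 with the block). On laminin Srf fell by 0.42 ± 0.10 (0.018). With the block 4 of the 17 fell and 5 rose, beside 50.1% of all genes called.

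Dusp1 belongs to a wider set of negative regulators of the response. Of 19 further genes listed, 18 were tested, and 5 fell and 1 rose for the attached mean, with a median of -0.12, beside 10.4% of all genes lower and 15.9% higher. Dusp8, a phosphatase for stress kinases, fell by 1.18 ± 0.16 (edgeR adjusted p = 0.000557), from 6.81 ± 1.001 CPM in suspension to 4.47 ± 0.90 on fibronectin, 2.16 ± 0.60 on laminin and 2.74 ± 0.30 on uncoated dishes. In the main test it was called on laminin (0.000568) and uncoated dishes (0.00293). On fibronectin the change was -0.57 ± 0.20 (0.0907, and 0.0262 with the batch as a block). Spry2 and Spred2, which brake signalling from growth factor receptors to ERK, fell by 0.67 ± 0.11 (0.00163) and 0.39 ± 0.06 (0.00154). Dusp14 rose by 0.51 ± 0.12 (0.0104), a call lost without suspension 2 (0.0601) or suspension 3 (0.0513). By surface it was called in the main test on fibronectin only, at 0.94 ± 0.14 (0.00191). The change was 0.35 ± 0.14 on laminin (0.0999, and 0.0375 with the block) and 0.25 ± 0.14 on uncoated dishes (0.239, and 0.127 with the block). Without batch 3 the list held 3 lower and 2 higher calls, and without batch 1 it held 7 and 1, beside 23.3% and 11.1% of all genes called.

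Of 20 genes described as targets of EGR1 or AP-1, 18 were tested, and 5 fell and 3 rose for the attached mean, with a median of -0.11, beside 10.4% of all genes lower and 15.9% higher. Hbegf, a membrane-bound EGF receptor ligand, fell by 2.62 ± 0.20 (edgeR adjusted p = 1.12e-05). It averaged 93.8 ± 42.3 CPM in suspension, 23.0 ± 2.38 on fibronectin, 11.1 ± 0.57 on laminin and 13.5 ± 0.98 on uncoated dishes (SD, n = 3). The angiogenic factor Vegfa fell by 0.89 ± 0.06 (3.04e-06) and the cell cycle gene Ccnd1 by 0.57 ± 0.09 (0.00157), while Tgfb1 rose by 0.44 ± 0.08 (0.00349). Without suspension 1 the list held 5 lower and 3 higher calls, and without batch 1 it held 4 and 2, beside 17.1% and 11.1% of all genes called.

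**Figure D5:**
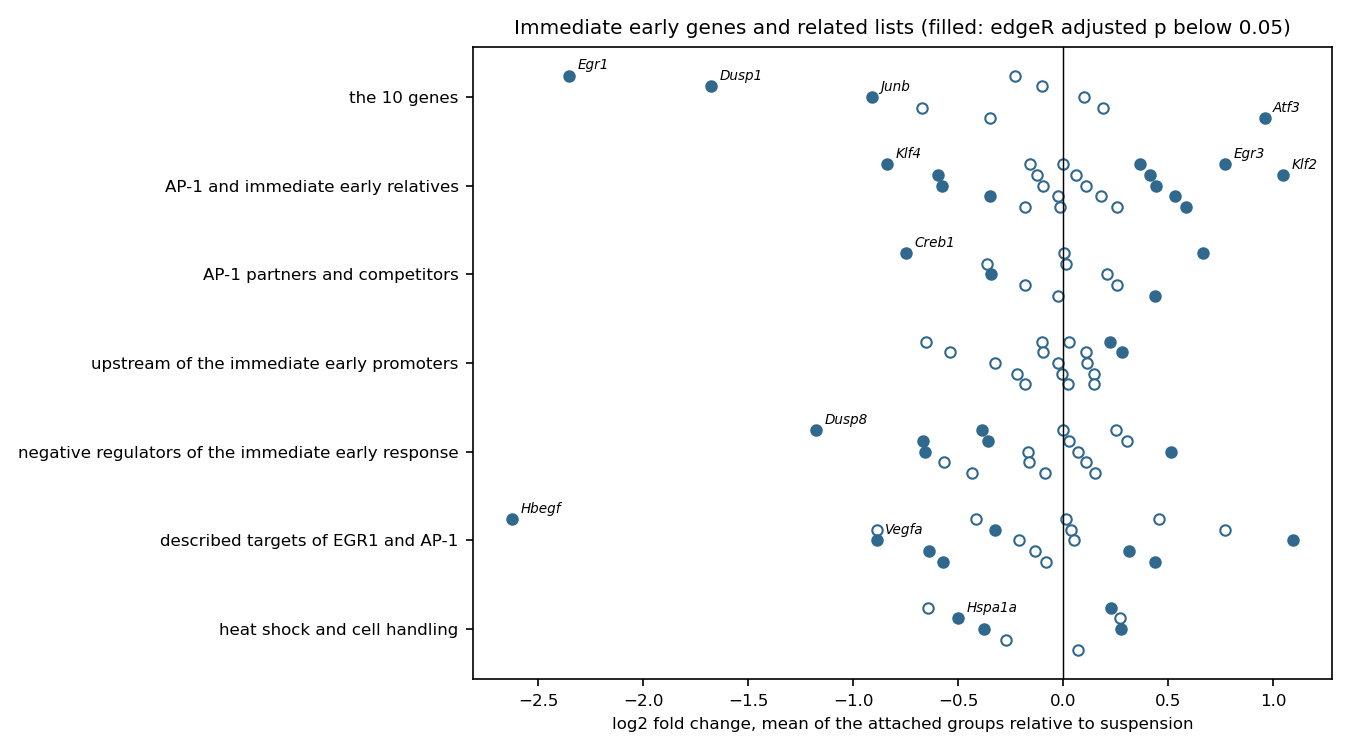
Log2 fold change of the attached mean relative to suspension on the x axis for the 10 genes and for the tested genes of 6 related lists, 1 row per list and 1 point per gene, filled where the edgeR adjusted p was below 0.05. Filled points lie on both sides of 0 in most rows, and Hbegf, Egr1 and Dusp1 lie farthest to the left.

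The genes whose pattern over the 12 libraries was most like each member were named by Pearson's r of log2 CPM. The libraries fall into groups and share batches, and r is given as a description without a test. For Egr1 they were Errfi1, a feedback inhibitor of the EGF receptor (0.969), Spry2 (0.955) and Frmd4a (0.954). For Dusp1 they were Gypc (0.986), Adam19 (0.976) and Afap1 (0.971), and for Junb Dcaf5 (0.952), Lfng (0.948) and Smtn (0.948). For the members not called in the main test, the highest values were 0.967 between Ier3 and Mafg, 0.922 between Fosl1 and Nfx1, 0.898 between Jun and Spry3, 0.893 between Egr2 and Sox7, 0.892 between Fos and Noct and 0.872 between Ier2 and Zfp609. For Atf3 it was 0.912 with Smoc1.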

How the data were processed

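Per the file headers, the deposited values were raw read counts per gene and library, keyed by Entrez identifier. Per the submitters' processing notes the build was rn4. For the counting, its tools, annotation and use of strand were not given in the sources used here, which leaves reads of antisense partners and close copies unresolved. Of 16924 identifiers, 16761 matched a symbol in the RefSeq table of GRCr8, which also gave the promoters. Counts were tested with edgeR 4.0.16 in R 4.3.3 (glmQLFit, glmQLFTest, TMM, filterByExpr) over 10020 genes and all 12 libraries, without a batch term. CPM used library totals. The edgeR code was tested on simulated data. The labels tie replicate numbers to shared batches, so the numbers pair the samples: deviations from group means correlated with a median of 0.409 in 18 same-batch pairs and -0.124 in 36 others, across genes. The labels do not say that a batch is a separate culture, so p-values measure the spread between these libraries of 1 clone. DESeq2 1.42.0, a batch block, other scalings, no filter and left-out libraries or batches were alternatives. Named genes were all members, up to 4 genes of the smallest p from each list and the 3 most alike genes per member, with symbols starting in LOC, RGD, MGC, Mir and Snor skipped. Members and lists were chosen with earlier results of these data known. Fosl2, Cebpd, Mrtfa, Mrtfb, Braf, Thbs1 and Hspa1b were not analysed here, and Egr4, Batf, Batf3, Dusp2 and Il6 were below the filter. The result of 1 listed gene is not reported here.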

Additional observations from a re-analysis of the deposited data

How the results depend on the processing

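Egr1, Junb and Dusp1 were called lower on each surface and for the attached mean under every alternative run, with adjusted p up to 0.0469, 0.0279 and 0.0125. The replicate block, which pairs libraries by batch, gave 6 members on laminin (Egr1, Fosl1, Jun, Junb, Ier3 and Dusp1) in place of 3. Without suspension 1 there were 6 on laminin and 7 for the attached mean. Leaving out 1 library at a time gave 3 to 5 members on fibronectin, 3 to 6 on laminin, 3 to 4 on uncoated dishes, 3 to 7 for the attached mean and 0 between surfaces. With only the groups compared, Atf3 on uncoated dishes had an adjusted p of 0.0827. Of all 1030 alternative values of the 70 member changes, 942 kept direction and side of the threshold, 16 lost a call, all of Atf3, 19 gained a call, and 53 changed sign, none of them called before or after and none larger than 0.22. Ier2 on fibronectin (0.01) became -0.0041 with RLE scaling, -0.029 with library totals, -0.0042 with DESeq2, -0.0038 with the block, -0.22 without batch 1 and -0.0011 with only the groups compared. Ier2 became -0.082 on laminin and -0.090 for the attached mean without batch 1, and -0.024 for laminin against fibronectin without batch 3. Without batch 3, Jun on fibronectin became 0.0087, Fos on uncoated dishes 0.21, Junb for laminin against fibronectin -0.044 and Atf3 for fibronectin against uncoated dishes 0.11. Without batch 1, Egr2 for fibronectin against uncoated dishes became 0.012 and Junb for laminin against uncoated dishes 0.069. For laminin against uncoated dishes, Ier3 became 0.0017 with RLE scaling, 0.011 with library totals, 0.0015 with DESeq2, 0.0015 without a filter, 0.035 without batch 3 and 0.021 without batch 1, and Dusp1 became -0.0011 with the block and -0.030 without batch 3. With 1 library left out, the range was -0.12 to 0.089 for Ier2, and -0.040 to 0.0051 for Jun, on fibronectin; -0.039 to 0.14 for Ier2 on laminin; and -0.34 to 0.12 for Fos and -0.30 to 0.071 for Fosl1 on uncoated dishes. For laminin against fibronectin it was -0.12 to 0.16 for Junb, -0.018 to 0.17 for Ier2 and -0.025 to 0.46 for Egr2. For fibronectin against uncoated dishes it was -0.23 to 0.13 for Egr2, -0.21 to 0.067 for Junb and -0.20 to 0.047 for Atf3. For laminin against uncoated dishes it was -0.11 to 0.37 for Egr2, -0.062 to 0.064 for Ier3, -0.18 to 0.073 for Junb and -0.16 to 0.13 for Dusp1. The cause of these changes was not tested. Over all genes, higher calls made up 68.3%, 63.4% and 67.4% on fibronectin, laminin and uncoated dishes, 53.9%, 54.8% and 54.3% with library totals, 57.9%, 51.8% and 51.8% with the block, and 46.5%, 45.4% and 43.1% without batch 3. "Without batch 1" and the alternatives for related lists were chosen after seeing the data. The low counts of Egr2, Fos and Atf3 limit what can be detected in them.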
